A study of Mus musculus with 3 samples.

Results

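Chemokine ligands and receptors were examined in sorted stroma cells of mouse tumours, measured on Affymetrix arrays in which groups of probes, called probe sets, give 1 log2 intensity each. The members are all genes whose probe sets carry a single symbol beginning with Ccl, Cxcl, Cx3cl, Xcl, Ccr, Cxcr, Cx3cr, Xcr or Ackr followed by a digit in the platform annotation. They came to 57 probe sets and 56 of 22087 named genes, made up of 34 ligands, 18 receptors and 4 atypical receptors. Ccl27a alone had more than 1 probe set, and the brighter of its probe sets was kept. The naming rule used no other measured value, but it was chosen with earlier results of these data known.

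All 3 samples, numbered 1 to 3 in their titles, carry the genotype label Dicer1 +/-, that is a single working copy of the gene for the nuclease that cuts microRNA precursors. They hold live cells that were PECAM1- and tdTomato- in the sort, a gate meant to leave out endothelium and fluorescent tumour cells, after digestion of the tumour for 1 hour at 37 °C. The labels give neither the age of the mice nor the promoter behind tdTomato, they do not spell out the letters ASD of the series title, and they do not say whether the samples came from separate animals. Part of the spread between samples may therefore be technical. The ASD+/+ stroma of the title was not analysed here, so the values describe 1 group and no effect of the genotype could be measured.

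Chemokines are small secreted proteins that guide cells along gradients by binding receptors coupled to G proteins. The families CC, CXC, CX3C and XC are named after the spacing of conserved cysteines near the start of the mature protein. Inflammatory members draw monocytes, neutrophils and effector lymphocytes into inflamed tissue and tumours, while homeostatic members place lymphocytes and dendritic cells within lymphoid tissue. Most inflammatory receptors bind several ligands, and atypical receptors bind ligand without G protein signalling and remove or relocate it.

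The arrays had medians of 5.35, 5.34 and 5.36. Sample 1 stood apart in sex-linked genes, with Xist at 9.78 against 3.43 and 3.49 in samples 2 and 3 and the Y-linked Eif2s3y at 3.86 against 8.51 and 8.71. Sample 1 thus reads as female and the others as male, so it did not share an animal with them. Sample 2 stood apart in the secreted gland proteins Lipf and Bpifb1, at 9.24 and 9.36 there and at most 4.91 in the others. Markers of fibroblasts were detected in 7 of 7 cases and of macrophages and monocytes in 9 of 9. Pecam1, the gene of the surface protein sorted against, was detected as well, at 8.02, 7.20 and 8.25. Cells of several kinds were measured in bulk, so fewer cells of a type and less RNA per cell cannot be told apart. With 1 array for each sample, a difference between samples has no error of its own and was not tested.

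The background reference was set by 1433 probe sets for smell, pheromone and taste receptors, and its 95th percentile stood at 5.16, 5.11 and 5.21. A gene was called detected when it exceeded this reference on all arrays. By this rule 27 of 34 ligands, 12 of 18 receptors and 2 of 4 atypical receptors were detected, together 41 of 56 members (73.2%). The same share was 60.5% of 20662 named genes outside the reference and 66.8% of protein-coding genes alone, a background chosen after the values were seen. Probe sets differ in brightness, so levels of different genes are not ranked here. On at least 1 array 47 members passed, against 66% of named genes, and 6 of them passed on some arrays only, namely Ccl27a, Ccr3, Ccr6, Ccr10, Ackr1 and Ackr4. The other 9 passed on none: the ligands Ccl1, Ccl20, Ccl26, Cxcl5, Cxcl11 and Cxcl15 and the receptors Ccr4, Ccr9 and Ccr1l1. Failure to pass does not show that the transcript is absent.

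**Figure D1:**
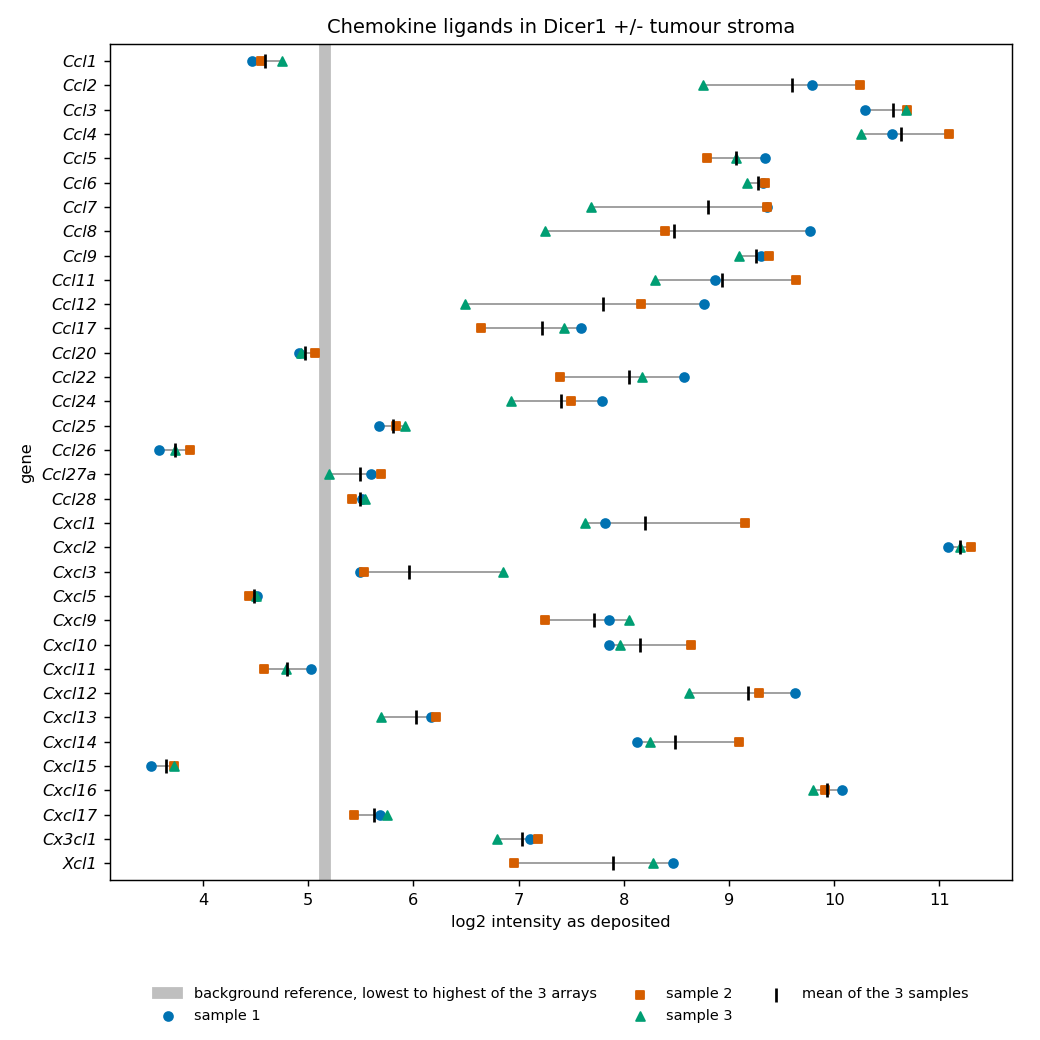
Log2 intensity (horizontal axis) of the 34 chemokine ligands (rows) in samples 1 to 3 (circle, square and triangle), with the mean as a black tick and the background reference, 5.11 to 5.21, as a grey band. Ccl8, Ccl12 and Ccl7 have the longest spans, while Cxcl2, Ccl6 and Ccl9 have ranges of at most 0.29, and 6 ligands lie to the left of the band in all samples.

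Of 36 ligand and receptor pairs taken from textbook knowledge with both genes measured, 21 had both genes detected, over 18 ligands and 12 receptors. In 9 pairs the ligand alone was detected, in 4 the receptor alone and in 2 neither. Ligand and receptor had their highest value in the same sample in 4 of the 21 pairs and their lowest in the same sample in 8. Several pairs share a gene, and no share for unrelated genes was computed, so these counts do not show agreement or its absence. The pairs are described by the cells they are known to guide.

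**Figure D2:**
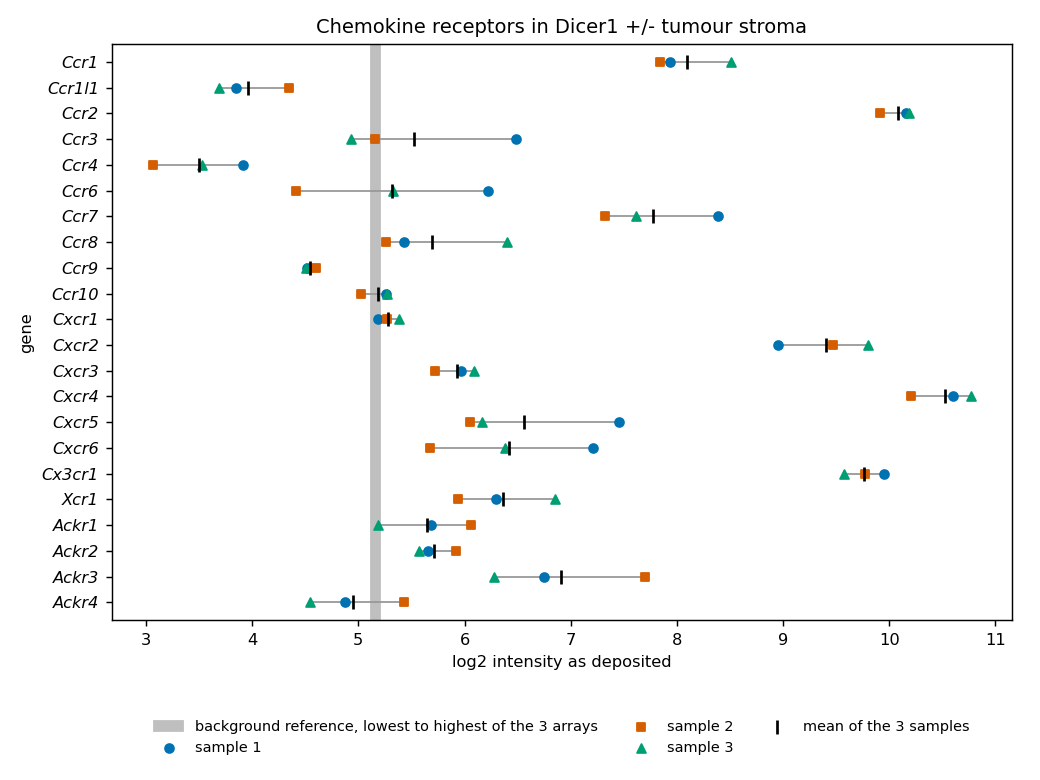
Log2 intensity (horizontal axis) of the 18 receptors and 4 atypical receptors (rows) in samples 1 to 3 (circle, square and triangle), with the mean as a black tick and the background reference as a grey band. Ccr6 and Ccr3 cross the band between samples, and all 4 atypical receptors have sample 2 on the right and sample 3 on the left.

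The widest ranges among the members were those of the CC ligands Ccl8 and Ccl12. Ccl8, which in mice acts through Ccr8, was at 9.77, 8.39 and 7.25 in samples 1, 2 and 3, a mean of 8.47 ± 1.26 (SD, n = 3) and a 5.74-fold span. Ccl12, a mouse ligand of Ccr2, was at 8.76, 8.16 and 6.49, a 4.82-fold span. Sample 1 gave the top value and sample 3 the bottom value of both. Ccl7, which binds Ccr2 and Ccr3, was at 9.36 in samples 1 and 2 and at 7.69 in sample 3. The deposited values of Ccl7 in samples 1 and 2 were exactly equal, so its SD of 0.96 may understate the spread. Ccl2, the main ligand of Ccr2, was at 9.79, 10.24 and 8.76 (9.60 ± 0.76, SD, n = 3). Sample 3 was thus the lowest in all 4 of these genes.

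Of their receptors, Ccr2 and Ccr8 did not have sample 3 as the lowest, while Ccr3, described with the eotaxins, did. Ccr2, which inflammatory monocytes need to leave the bone marrow, was at 10.15, 9.91 and 10.18, a span of 0.27 (10.08 ± 0.15, SD, n = 3). Ccr8, found on regulatory and type 2 helper T cells, was at 5.43, 5.26 and 6.40, with sample 3 the highest and samples 1 and 2 just above the background reference. The ranges of Ccl2, Ccl7, Ccl8 and Ccl12 ran from 1.49 to 2.52 and that of Ccr2 was 0.27. Of 9 macrophage and monocyte markers 7 were lowest in sample 3, against 33.3% of genes detected on at least 1 array. Of the 9, 3 peaked in sample 1, as Ccl8 and Ccl12 did, and 5 in sample 2. Cd163 spanned from 8.68 in sample 2 to 6.27 in sample 3, and Adgre1 was at 9.46, 9.19 and 8.47. The summed linear intensity of the 9 was 12601, 13018 and 9648, and none was below background. All fibroblast, pericyte and smooth muscle markers and 4 of 5 mast cell markers were lowest in sample 3 too. Ly6c2, which marks inflammatory monocytes and was singled out after its values were seen, was at 11.35, 11.40 and 11.65. The part of these cells in the ligand values was not tested.

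Ccl2, Ccl7, Ccl11, Ccl12, Ccl8 and Ccl1 follow each other as protein-coding genes in the RefSeq annotation of GRCm38.p6, and 5 of these 6 neighbours were lowest in sample 3, Ccl1 being below background. Another run of neighbours, Ccl5, Ccl9, Ccl6, Ccl3 and Ccl4, had 3 of 5 lowest in sample 3 and ranges of at most 0.84. Over all genes detected on at least 1 array 33.3% were lowest in sample 3, and over such ligands 53.6%. Ccl2, Ccl7, Ccl8 and Ccl12 were already described above as lowest there, so the first count adds little to them. RefSeq promoters (250 bases before to 50 bases after the start, build GRCm38.p6) were found for 42 members. Those of Ccl12 and Ccl8 are shown because these neighbours had the widest ranges and the same order of samples. Written 5′ to 3′, capitals mark TATAAA, searched on both strands, which begins 31 bases before the start in Ccl12 and 32 in Ccl8.
Ccl12 (chr11:82101595-82101894, + strand): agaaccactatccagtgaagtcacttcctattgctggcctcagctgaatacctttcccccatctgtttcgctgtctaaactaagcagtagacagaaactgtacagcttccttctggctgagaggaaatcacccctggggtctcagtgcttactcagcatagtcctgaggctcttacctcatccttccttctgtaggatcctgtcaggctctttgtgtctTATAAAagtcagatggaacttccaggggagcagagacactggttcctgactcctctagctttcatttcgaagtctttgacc
Ccl8 (chr11:82114935-82115234, + strand): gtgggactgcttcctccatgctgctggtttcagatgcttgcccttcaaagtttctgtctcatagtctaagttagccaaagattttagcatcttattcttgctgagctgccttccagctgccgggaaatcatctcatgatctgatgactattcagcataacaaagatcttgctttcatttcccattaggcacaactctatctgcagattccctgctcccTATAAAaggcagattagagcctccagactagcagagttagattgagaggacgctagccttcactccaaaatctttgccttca

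TATAAA occurred in 14 of 46 promoters of members (30.4%) and in 13.6% of 32851 promoters in the table. Neither of the printed promoters held the NF-kB pattern, spelled as GGG, any 3 bases and TTCC and searched on both strands. A match is a description of the letters and not evidence of a bound factor, and the patterns were chosen with the values known.

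Ligands of Ccr1, a receptor of monocytes and neutrophils, differed little between samples. Ccl3 was at 10.30, 10.69 and 10.68, Ccl6 at 9.33, 9.34 and 9.17 and Ccl9 at 9.30, 9.38 and 9.09, with SDs of 0.22, 0.10 and 0.15 (n = 3 each). Ccl5, made by T cells and macrophages, was at 9.34, 8.79 and 9.06. Ccl4, a close relative of Ccl3, was at 10.55, 11.09 and 10.26, highest in sample 2. Ccr1 itself was at 7.93, 7.84 and 8.51. Sample 3 was its highest, and samples 1 and 2 were close together.

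Of the eotaxins, which draw eosinophils through Ccr3, Ccl11 and Ccl24 were detected and Ccl26 was below background. The receptor was near background. Ccl11 was at 8.87, 9.63 and 8.30 (8.93 ± 0.67, SD, n = 3), highest in sample 2. Ccl24 was at 7.80, 7.50 and 6.93, highest in sample 1. Ccr3 was at 6.49, 5.15 and 4.93, above the reference by more than 1 in sample 1, barely in sample 2 and not in sample 3. Among eosinophil markers, the granule genes Prg2 (10.85, 10.42 and 8.41) and Epx (6.30, 5.66 and 4.60) had the same order of samples. Siglecf, a surface lectin of eosinophils, did not, at 6.31, 5.73 and 6.09. Over the 3 of 4 eosinophil markers that passed on any array the summed linear intensity was 1999, 1473 and 433, mostly from Prg2. Il5ra passed on none. The part of eosinophils in the Ccr3 values was not tested.

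In the neutrophil axis the shared receptor Cxcr2 was at 8.95, 9.47 and 9.80 (9.41 ± 0.43, SD, n = 3), lowest in sample 1 and highest in sample 3. Its ligands went different ways. Cxcl1 was at 7.82, 9.15 and 7.63, high in sample 2 alone, a 2.87-fold span. Cxcl3 was at 5.50, 5.53 and 6.85, high in sample 3 alone and close to the background reference in samples 1 and 2. Cxcl2 was at 11.08, 11.30 and 11.19 and had a range of 0.22. Cxcl5 was below background in all samples, between 4.44 and 4.51. Cxcr1, the other receptor of this class, was at 5.18, 5.27 and 5.39, just above the reference in all samples. Of 9 neutrophil markers 6 had the order of Cxcr2: 8 of 9 peaked in sample 3 and 6 had their minimum in sample 1. Over all genes detected on at least 1 array these shares were 32.8% and 31.2%. Csf3r was at 8.62, 9.04 and 9.83, and the summed linear intensity of the 9 was 20237, 22194 and 26563. S100a8 and S100a9, calcium-binding proteins of neutrophils, had ranges of 0.04 and 0.09. The part of neutrophils in the Cxcr2 values was not tested.

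Cxcl3, Cxcl1 and Cxcl2 also lie in 1 run of neighbouring genes with Cxcl15. Their promoters are shown because the letters are alike where the values were not, a choice made after the values were seen. Written 5′ to 3′, capitals mark the NF-kB pattern on either strand, where matches on both strands overlap, and TATAAA.
Cxcl3 (chr5:90785851-90786150, + strand): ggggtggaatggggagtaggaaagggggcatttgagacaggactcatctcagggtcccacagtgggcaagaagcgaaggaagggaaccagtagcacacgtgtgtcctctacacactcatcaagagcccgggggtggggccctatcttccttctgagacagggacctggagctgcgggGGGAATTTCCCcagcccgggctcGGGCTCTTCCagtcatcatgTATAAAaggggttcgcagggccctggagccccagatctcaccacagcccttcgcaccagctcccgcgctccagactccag
Cxcl1 (chr5:90890995-90891294, + strand): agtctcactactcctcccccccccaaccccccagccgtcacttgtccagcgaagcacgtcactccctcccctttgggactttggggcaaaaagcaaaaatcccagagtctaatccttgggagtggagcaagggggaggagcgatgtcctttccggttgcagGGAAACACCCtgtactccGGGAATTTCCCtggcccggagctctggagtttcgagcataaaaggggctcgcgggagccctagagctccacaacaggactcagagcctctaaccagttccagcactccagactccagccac
Cxcl2 (chr5:90903649-90903948, + strand): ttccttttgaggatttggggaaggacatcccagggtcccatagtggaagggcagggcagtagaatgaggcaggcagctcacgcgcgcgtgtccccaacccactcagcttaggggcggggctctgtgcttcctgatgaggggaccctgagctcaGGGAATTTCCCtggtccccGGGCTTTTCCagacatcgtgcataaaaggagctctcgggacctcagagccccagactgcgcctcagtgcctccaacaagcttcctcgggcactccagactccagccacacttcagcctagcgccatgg

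The match GGGAATTTCC was present in all 3 promoters and began 73, 71 and 97 bases before the start of Cxcl3, Cxcl1 and Cxcl2. A further match, GGGCTCTTCC in Cxcl3 and GGGCTTTTCC in Cxcl2, lay nearer the start, and Cxcl1 had GGAAACACCC, a match on the opposite strand, farther from it. TATAAA was found in the window of Cxcl3 and not in those of Cxcl1 and Cxcl2. The NF-kB pattern occurred in 9 of 46 promoters of members (19.6%), each of a different gene, against 5.56% of all promoters in the table. Of the NF-kB and inflammatory list 11 of 11 measured genes were detected and none had a range above 1, against 5.7% of genes detected on at least 1 array. Their median range was 0.37 and that of all such genes 0.31. Among them Tnf was at 9.97, 10.49 and 10.64, Il1a at 7.77, 6.82 and 7.80 and Il1b at 10.84, 10.78 and 11.56.

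Among the interferon-inducible ligands of Cxcr3, a receptor of activated T cells and natural killer cells, Cxcl9 was at 7.86, 7.25 and 8.05 and Cxcl10 at 7.86, 8.64 and 7.96. Sample 2 was thus the lowest for Cxcl9 and the highest for Cxcl10. Cxcl11 was below background, between 4.58 and 5.03. Cxcr3 was at 5.97, 5.72 and 6.09. Of 10 measured genes of the interferon-gamma response 7 peaked in sample 3 and 7 had their minimum in sample 2, and 5 did both, as Cxcl9 did. Over all genes detected on at least 1 array 32.8% peaked in sample 3 and 29.3% had their minimum in sample 2. Dendritic cell markers, described with Xcr1, had their minimum in sample 2 in 7 of 7 cases, and their part in the Cxcl9 values was not tested. Ciita, the master regulator of class II genes, was at 7.83, 6.68 and 8.27 and Cd274, which encodes PD-L1, at 7.44, 6.69 and 7.78. Gbp4, at 5.69, 4.53 and 4.78, was the third member with a range above 1, but it passed in sample 1 alone. Ifng was at 5.30, 4.92 and 5.38, close to background.

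Cxcl12, a stromal ligand that retains leukocytes and progenitors, was at 9.63, 9.29 and 8.62 (9.18 ± 0.52, SD, n = 3), lowest in sample 3. Its signalling receptor Cxcr4 was at 10.60, 10.21 and 10.77, lowest in sample 2 with a range of 0.57. Its atypical receptor Ackr3, which takes up Cxcl12, was at 6.74, 7.70 and 6.28 (6.91 ± 0.73, SD, n = 3), highest in sample 2. The other atypical receptors had the same order of samples with smaller spans. Ackr2, which takes up inflammatory CC ligands, was at 5.66, 5.92 and 5.57. Ackr1, known from venules and red cells, was at 5.68, 6.06 and 5.19, just below the reference in sample 3. Ackr4, which takes up Ccl19, Ccl21 and Ccl25, was at 4.88, 5.43 and 4.54 and passed in sample 2 alone.

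All 4 atypical receptors thus had their highest value in sample 2 and their lowest in sample 3, as did 7 of 7 fibroblast markers and 6 of 6 pericyte and smooth muscle markers. Over all genes detected on at least 1 array, 32.5% peaked in sample 2 and 33.3% had their minimum in sample 3. The summed linear intensity of the fibroblast markers was 9199, 12799 and 6307 and that of the pericyte and smooth muscle markers 4004, 6646 and 2656, with Pdgfra at 8.55, 9.24 and 7.82 and Rgs5 at 9.93, 10.64 and 9.47. Every marker of both lists was above background. Ccl2 and Ccl11 had the same order, and so did the ligands Ccl4, Ccl6, Ccl9, Cxcl1, Cxcl13, Cx3cl1 and Ccl27a. Of 5 mast cell markers, 5 were detected and 4 had this order, with Mcpt4 at 9.22, 9.55 and 8.42, Cma1 at 7.06, 7.80 and 6.75 and a summed linear intensity of 1632, 1995 and 1212. Of the 8 endothelial markers, 6 were highest in sample 3, against 32.8% of genes detected on at least 1 array. The part of these cells in the values was not tested.

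The lymphoid receptors Cxcr5, Ccr6 and Ccr7 were highest in sample 1, while Cxcr3 and Ccr8, also found on T cells, were highest in sample 3. Sample 1 alone read as female, so sex cannot be told apart from its other differences. Cxcr5, which leads B cells to Cxcl13, was at 7.46, 6.05 and 6.16 (6.56 ± 0.78, SD, n = 3). Ccr6, on B cells and some helper T cells, was at 6.22, 4.41 and 5.33 and below background in sample 2. Ccr7, on naive T cells and mature dendritic cells, was at 8.39, 7.32 and 7.62. Their ligands had no such order or were not read. Cxcl13 was at 6.17, 6.21 and 5.69, and Ccl20, the ligand of Ccr6, was below background. The ligands of Ccr7, Ccl19 and Ccl21, are named only by probe sets that list several near-identical copies (33 such probe sets, which also cover Ccl27), and these were not used. B cell markers were highest in sample 1 in 5 of 5 cases, against 28.8% of genes detected on at least 1 array. Ms4a1 was at 9.05, 6.34 and 6.45 and Jchain at 8.69, 5.07 and 6.81, Jchain being below background in sample 2. The summed linear intensity of the 5 was 3110, 1329 and 1305. Cr2 passed in sample 1 alone. The part of B cells in Cxcr5 and Ccr6 was not tested.

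Several genes of T cell and dendritic cell traffic were low in sample 2. Cxcr6, on resident and effector T cells, was at 7.21, 5.67 and 6.38 (6.42 ± 0.77, SD, n = 3). Its ligand Cxcl16, made by macrophages and dendritic cells, was at 10.07, 9.91 and 9.80, a range of 0.27. Xcl1, made by cytotoxic lymphocytes, was at 8.46, 6.95 and 8.28 (7.90 ± 0.82, SD, n = 3). Its receptor Xcr1, which marks cross-presenting dendritic cells, was at 6.30, 5.94 and 6.85. Both members of that pair were lowest in sample 2. Ccl17 and Ccl22, made by dendritic cells and neighbours of Cx3cl1 in the annotation, were at 7.59, 6.64 and 7.43 and at 8.57, 7.39 and 8.17. Their receptor Ccr4 stayed below background, between 3.06 and 3.91.

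T cell and dendritic cell markers were lowest in the same sample. Of 8 T cell markers 7 were lowest in sample 2 and 7 highest in sample 1. Over all genes detected on at least 1 array these shares were 29.3% and 28.8%. Cd3e was at 8.59, 6.49 and 8.04, and the summed linear intensity of the 8 was 2942, 1519 and 1663. Thy1, at 10.00, 10.00 and 9.39 and lowest in sample 3, weighed most in this sum. Of 7 dendritic cell markers 7 were lowest in sample 2 and 6 peaked in sample 3, with Flt3 at 6.74, 6.66 and 8.36, Cd209a at 8.25, 7.41 and 9.06, and a summed linear intensity of 6999, 5471 and 8116. Every marker of both lists was above background on all arrays. Natural killer markers had no common order. Ncr1 was at 5.73, 5.23 and 5.23 and Gzma at 6.55, 5.54 and 5.48, both highest in sample 1, while Nkg7 was at 7.90, 7.90 and 8.96 and Prf1 at 6.43, 6.50 and 6.22. Klrb1c passed on no array. The part of these cells in the chemokine values was not tested.

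**Figure D3:**
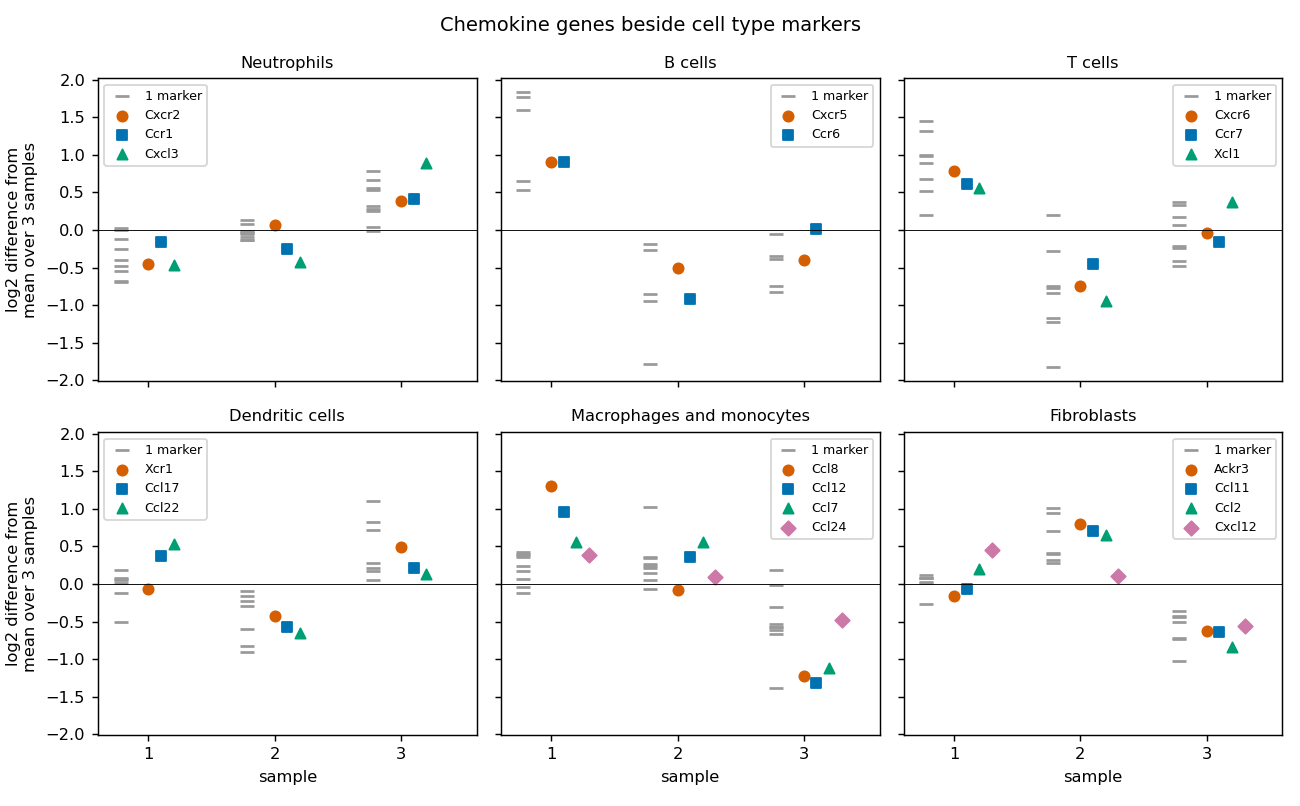
Log2 difference of each gene from its own mean over the 3 samples (vertical axis) in samples 1, 2 and 3 (horizontal axis), with each cell type marker as a grey bar and chemokine genes as coloured symbols, chosen after their values were seen. Cxcr5 and Ccr6 lie with the B cell markers above 0 in sample 1, and Ccl8, Ccl12 and Ccl7 lie with most macrophage markers below 0 in sample 3.

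Cx3cl1, a membrane-bound ligand, was at 7.11, 7.19 and 6.79, and Cx3cr1, a receptor of patrolling monocytes and macrophages, at 9.95, 9.77 and 9.58. Their SDs were 0.21 and 0.19 (n = 3 each), and both were lowest in sample 3. Of the ligands known from epithelia and skin, Ccl25, Ccl28 and Cxcl17 were detected near the reference and Ccl27a passed on some arrays only. Cxcl14, which fibroblasts also make, was farther above it, at 8.13, 9.09 and 8.24 (8.49 ± 0.52, SD, n = 3), highest in sample 2, as were the gland genes Lipf and Bpifb1, which passed there alone. Of the other genes of that list, Krt18 at 6.31, 5.96 and 6.28 and Epcam at 5.14, 4.90 and 5.39 were lowest in sample 2, and Krt8 had a range of 0.06. The part of these cells in the Cxcl14 values was not tested. Ccl25 was at 5.68, 5.83 and 5.92 and its gut-homing receptor Ccr9 below background. Ccl28 was at 5.51, 5.42 and 5.54, Cxcl17 at 5.69, 5.44 and 5.75 and Ccl27a at 5.60, 5.69 and 5.20, with Ccr10, the receptor of Ccl27 and Ccl28, at 5.26, 5.03 and 5.27. The dimmer probe set of Ccl27a read 4.22, 4.50 and 4.26, below background, and copies of the gene make both readings uncertain. Ccl1, Ccl26 and Cxcl15 also stayed below background.

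**Figure D4:**
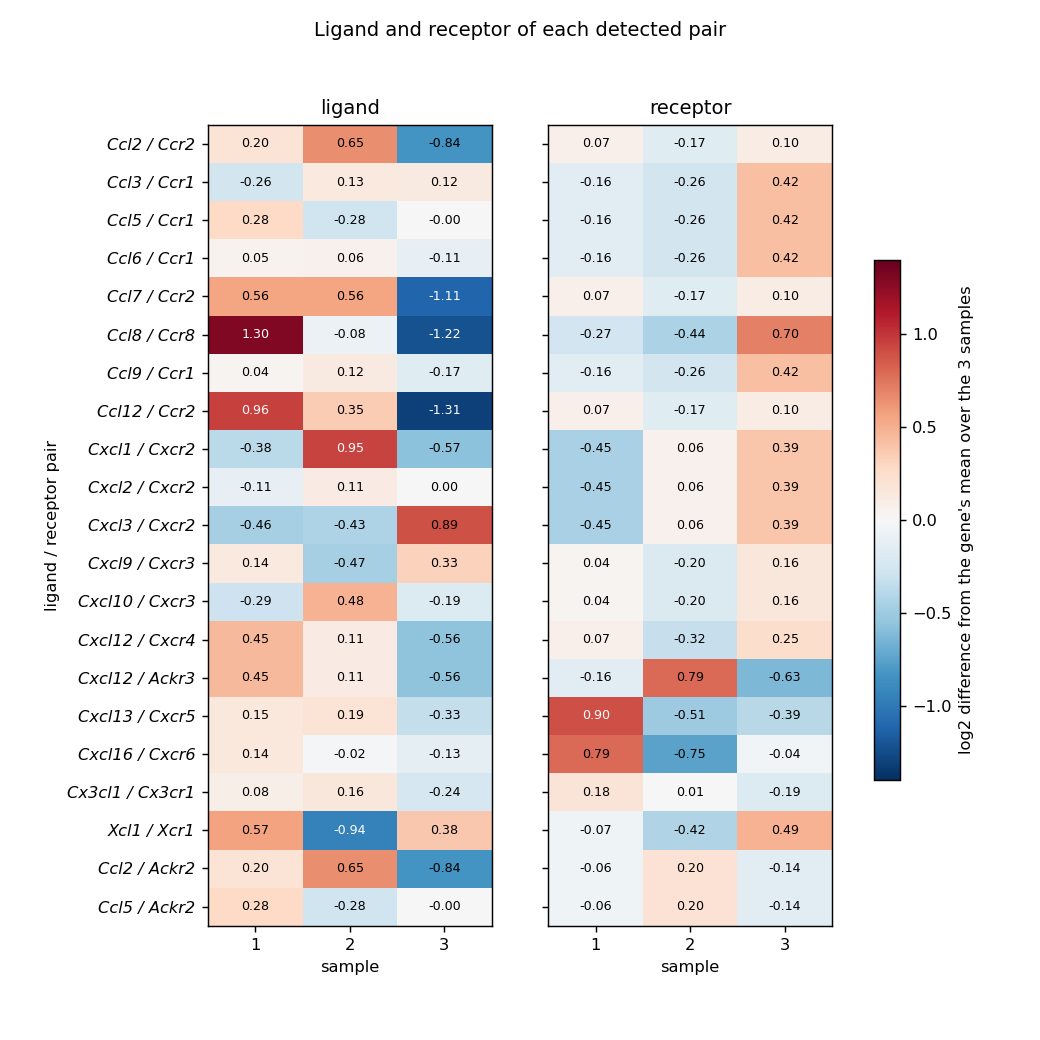
Log2 difference of ligand (left) and receptor (right) from the gene's mean over the 3 samples, printed in each cell, for the 21 pairs with both genes detected (rows) in samples 1 to 3 (columns). The ligands of Ccr2 range from -1.31 to 0.96 while Ccr2 itself stays between -0.17 and 0.10.

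Chemokine genes varied more between the samples than most named genes did. A range above 1, that is above 2-fold, was found in 17 of 56 members and in 3.99% of all named genes. Among members detected on every array it was found in 15 of 41 (36.6%), against 4.86% of genes, and among the 47 detected on at least 1 array in 17 (36.2%), against 5.7%. The median range of the members detected on every array was 0.84 and that of all such genes 0.30. The 17 were the ligands Ccl2, Ccl7, Ccl8, Ccl11, Ccl12, Ccl22, Cxcl1, Cxcl3, Cxcl12 and Xcl1, the receptors Ccr3, Ccr6, Ccr7, Ccr8, Cxcr5 and Cxcr6, and Ackr3. Marker lists of leukocytes and stroma had such genes too, 6 of 8 for T cells, 5 of 6 for pericytes and smooth muscle, 4 of 9 for neutrophils and 3 of 7 for fibroblasts, so the excess is not shown to be particular to chemokines.

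**Figure D5:**
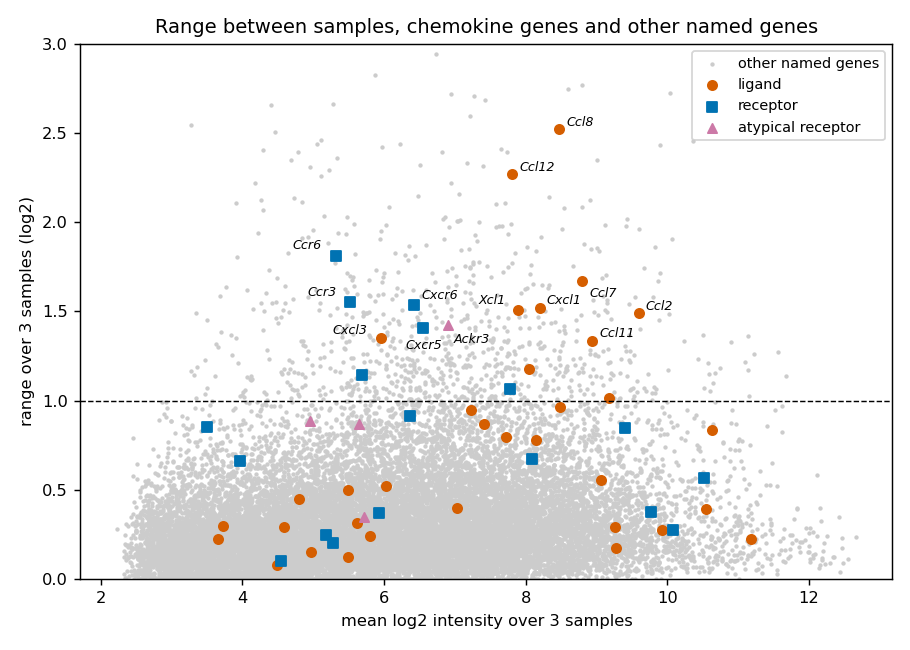
Range over the 3 samples in log2 units (vertical axis) against mean log2 intensity (horizontal axis) for ligands (circles), receptors (squares), atypical receptors (triangles) and other named genes (grey dots), with a dashed line at 1. Ccl8 and Ccl12 lie highest among members, and 20 other genes lie above the upper edge of 3.

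A range over 2 samples cannot exceed that over 3, so leaving out a sample could only lower the count of 17. Without sample 1 the range stayed above 1 in 10 of the 17, without sample 2 in 8 and without sample 3 in 9. Over all genes detected on at least 1 array, 777 had a range above 1 with 3 samples. Without samples 1, 2 and 3 in turn the number was 471, 373 and 248 (3.49%, 2.79% and 1.84% of genes detected on at least 1 remaining array). Ccl8 alone kept a range above 1 in all 3 cases, with 1.14, 2.52 and 1.38. Without sample 3 the range of Ccl12 was 0.60, that of Ccl2 0.45, that of Ccl11 0.76, that of Ackr3 0.96, that of Cxcl12 0.34, that of Ccr8 0.17 and that of Cxcl3 0.03, and Ccl7 had none. Without sample 2 the range of Ccl11 was 0.57, that of Cxcl1 0.19, that of Xcl1 0.19, that of Ackr3 0.47, that of Ccr6 0.89, that of Cxcr6 0.83, that of Ccr7 0.77, that of Ccl22 0.40 and that of Ccr8 0.97. Without sample 1 the range of Cxcr5 was 0.12, that of Ccr3 0.22, that of Ccr6 0.92, that of Ccr7 0.30, that of Cxcr6 0.70, that of Ccl22 0.78 and that of Cxcl12 0.67.

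Ligands and receptors had different orders of samples. Of the 27 ligands detected on every array 12 peaked in sample 2 and 14 had their minimum in sample 3, against 32.1% and 33.5% of all such genes. CC ligands made up most of the latter, with 9 of 15 lowest in sample 3, while CXC ligands had 4 of 10. Of the 12 receptors detected on every array none was highest in sample 2 and 9 were lowest there, against 29.7% of genes, and 8 were highest in sample 3, against 32.8%. Of the 47 members detected on at least 1 array, 15 peaked in sample 1 and 18 had their minimum in sample 2, against 28.8% and 29.3% of genes. Of the 41 detected on every array, 13 peaked in sample 1, against 29.2%, and 8 had their minimum there, against 30.7%. The median difference from the gene's mean was 0.08, 0.11 and -0.17 for these ligands in samples 1 to 3, 0.06, -0.29 and 0.13 for these receptors, and near 0 for all genes. These counts describe 3 arrays and were not tested, and the genes are not independent of each other.

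Among the G protein subunits through which chemokine receptors signal, Gnai2 was at 10.53, 10.58 and 10.77, Gnai3 at 9.36, 9.31 and 9.33 and Gnb1 at 10.17, 10.34 and 10.13. These are the first 3 of their list and their ranges were at most 0.24. Wider ranges were found for Fgr, a Src-family kinase of myeloid cells, at 0.97, and for Rgs1, a regulator of G protein signalling, at 0.92, both singled out after their values were seen.

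Of 10 measured relatives of chemokines and their receptors outside the name rule, all were detected and 2 had a range above 1. Pf4, a CXC chemokine of platelets and some macrophages, was at 9.31, 9.38 and 8.06, lowest in sample 3 like Ccl2, Ccl7, Ccl8 and Ccl12. Cmklr1, the chemerin receptor of macrophages, was at 7.09, 7.56 and 6.44. Ppbp, another platelet chemokine, was at 5.50, 5.31 and 5.39, and Ccrl2, which binds chemerin without signalling, at 9.32, 9.23 and 9.73.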

How the data were processed

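The authors deposited log2 intensities, 1 value for each of 31873 probe sets and each of 3 arrays. Per the submitters' processing notes Partek was used, and the sources used here do not give the background correction, normalization, summarization or genome build. Values of 2.00 to 13.18 set the scale as log2. Of the probe sets 23094 had 1 symbol in the platform annotation, 1764 had several and 7015 were unnamed here. Per gene the probe set with the highest mean was kept. All 56 members matched RefSeq (GRCm38.p6) by gene identifier, used for names, neighbours and promoters. Ties between arrays occurred in 10.8% of genes detected on any array and in 1 of 47 members (Ccl7). Counts, ranges, means and SDs were computed with Python 3.11.15, pandas 2.3.3 and numpy 2.4.6 and checked on simulated data. The number of arrays limits the precision. Members, pairs and 16 gene lists (151 entries) were chosen with earlier results of these data known. The rule for names took all members and, from each list, the first 3 measured genes and those with a range above 1. Not all of these list genes are printed, and each marker list is given by its counts or examples. Genes beyond the rule are Fgr, Rgs1 and Ly6c2 and, to complete their lists, Il5ra, Prf1, Epcam and Krt8. Thy1, H2-Aa and H2-Ab1 are also beyond it, named because they weighed most in their sums. Counts over the signalling genes are not reported here. Printed promoters were to be those of members with a range above 1 that were highest in the same sample. Alternatives varied the reference, normalization, probe set rule, fold threshold, filter and samples.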

Additional observations from a re-analysis of the deposited data

How the results depend on the processing

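Of 86 counts recomputed under alternatives, 73 stayed within 1.5 times the reported count. With the 99th percentile as reference 6 receptors of both kinds were detected (14 in the report) and 11 pairs (21), and with the 90th percentile 32 pairs. Ligand counts ran from 22 to 31. Above 1.5-fold and 3-fold, 28 and 4 members passed in place of 17. Leaving out samples gave 8 to 10 members with a range above 1, 25 to 28 highest in sample 1 (15 in the report), 18 to 22 highest in sample 3 (14) and 18 to 21 lowest in sample 1 (8), since 2 samples then share all ranks. Quantile normalization and centring left these counts within 1 of the report's. Of 564 values of single members (mean and range), 48 moved by more than 1 SD, 47 of them on leaving out a sample. No paired analysis was possible because there is 1 group. Signal near the background reference limits Ccr3, Ccr6, Ccr8, Ccr10, Cxcr1, Ackr1 and Ackr4, whose detection turns on small differences. Among other detected receptors, Cxcr3, Cxcr5, Cxcr6, Xcr1, Ackr2 and Ackr3 had lowest values of 5.72, 6.05, 5.67, 5.94, 5.57 and 6.28. Their detection is less secure too, as only 6 of 14 receptors stayed detected at the 99th percentile. The detected ligands Ccl25, Ccl28, Cxcl17, Cxcl3 and Cxcl13 had lowest values of 5.68, 5.42, 5.44, 5.50 and 5.69, which limits them likewise. At the 99th percentile 22 of 27 ligands stayed detected.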
